A study of Mus musculus with 4 samples.

Results

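Myelinating oligodendrocytes of the mouse superior colliculus were taken as the nuclei that the depositors' subtype column calls Myelinating Oligodendrocyte, which gave 188 of 9724 nuclei in all. At postnatal day 21 (P21) there were 187 of them, 8.31% of 2249 nuclei (95% interval 7.21 to 9.53). They were compared with the 64 precursor nuclei (labelled OPC) and the 55 nuclei labelled Committed Oligodendrocyte of the same P21 library. Within the oligodendrocyte lineage at P21 the myelinating nuclei made up 61.1% of 306 nuclei (55.4 to 66.6), the committed nuclei 18.0% and the precursors 20.9%. A single further nucleus carried the myelinating label at P8. At E19 and P4 there was none, which allows a share of up to 0.116% of 2585 nuclei and 0.126% of 2386 nuclei.

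The superior colliculus is a midbrain region that receives visual and other sensory input. Nuclei were isolated from C57BL/6J mice at embryonic day 19 (E19) and at P4, P8 and P21, with tissue of several animals pooled at each stage and no treatment or mutation in any group. There was 1 library per stage, so there is no measure of the spread between animals, and no test between groups was made. The libraries held between 19277512 unique molecular identifiers (UMIs, each 1 captured RNA molecule) at E19 and 31325079 at P21, and the reference included introns.

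Levels below are UMIs of a gene per 1000000 UMIs of the summed nuclei of a subtype (CPM), and brackets hold exact Poisson intervals for levels and Clopper-Pearson intervals for shares, both at 95% and both for counting error only. The subtype labels follow clusters of the same counts: the myelinating label covered cluster 19, the committed label cluster 27 and the precursor label cluster 13, nucleus for nucleus. Differences between the 3 subtypes therefore describe how the labelled nuclei differ and are no test of anything. A gene was counted as higher or lower when its log2 ratio, with 5 CPM added to both levels, was at least 1 in size and its mean level at least 20 CPM, a scale that understates the difference of low genes.

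Oligodendrocytes wrap axons in myelin, a compacted stack of membrane that speeds conduction and is rich in galactolipids, cholesterol and a small set of structural proteins. They form from precursors that carry the growth factor receptor Pdgfra and chondroitin sulfate proteoglycans. Cells that have left the precursor state pass through a short premyelinating stage, marked in rodents by genes such as Bmp4, Neu4, Itpr2, Tcf7l2 and the long noncoding RNA 9630013A20Rik, before the myelin genes reach their full level.

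The RefSeq windows directly before the annotated starts of 3 genes are shown because these genes mark different steps below: Mobp was already high in part of the committed nuclei, while Sec14l5 and Hapln2 were high in myelinating nuclei only among the 3 subtypes. The windows are on build GRCm38.p6, Mobp at chr9:120149492-120149706 on the plus strand (215 bases), Sec14l5 at chr16:5146859-5147108 on the plus strand (250 bases) and Hapln2 at chr3:88027584-88027761 on the minus strand (178 bases). They were cut short of any annotated exon and chosen with their letters in view. Each is written 5′ to 3′ on the gene's strand, with capitals for matches, on either strand, to ACAAAG (a core of SOX sites, read CTTTGT on the other strand), CTGGCAC (the MYRF core, read GTGCCAG on the other strand) or CAGCTG (an E-box).
Mobp: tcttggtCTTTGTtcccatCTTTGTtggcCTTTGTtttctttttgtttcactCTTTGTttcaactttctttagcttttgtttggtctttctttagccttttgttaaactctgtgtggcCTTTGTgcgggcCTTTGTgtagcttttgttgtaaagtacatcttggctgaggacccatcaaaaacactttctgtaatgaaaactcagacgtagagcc
Sec14l5: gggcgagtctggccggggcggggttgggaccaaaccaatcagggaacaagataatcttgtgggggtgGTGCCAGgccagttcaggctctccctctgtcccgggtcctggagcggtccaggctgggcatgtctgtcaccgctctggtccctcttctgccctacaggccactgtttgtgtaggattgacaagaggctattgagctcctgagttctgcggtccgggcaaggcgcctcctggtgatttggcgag
Hapln2: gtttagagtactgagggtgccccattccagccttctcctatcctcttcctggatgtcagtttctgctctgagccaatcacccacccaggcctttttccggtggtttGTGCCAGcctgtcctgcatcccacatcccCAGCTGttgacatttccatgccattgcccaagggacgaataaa

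In the 250 bases before the start, Mobp held 6 copies of ACAAAG, the only one of 32851 RefSeq windows of that length with so many. At least 1 copy stood in 16.5% of all windows, and at least 3 copies in 45 windows (0.137%). CTGGCAC stood in 4.19% of all windows and once in that of Sec14l5, 183 bases before the start. In the printed part of the Hapln2 window it stood once, 144 bases before the start, and CAGCTG followed at 115 bases (13.0% of all windows). The full 250 bases before Hapln2 held 3 matches to the motifs searched, 2 of them in the printed part. ACAATG, another SOX core, was searched as well (10.7% of all windows) and had no match in the printed sequences. Among genes with a single annotated start, CTGGCAC stood before 12 of 182 genes that were higher in myelinating nuclei than in both other subtypes (6.59%, 3.45 to 11.2) and before 154 of 3974 genes measured (3.88%, 3.30 to 4.52), so the intervals overlap. It stood before 10 of 118 genes that were highest in committed nuclei (8.47%, 4.14 to 15.03). A match describes the letters and is not evidence of binding.

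The label was checked against its markers, Mobp, Prr5l and Mbp. Of the 187 nuclei, 184 held UMIs of all 3 (98.4%, 95.4 to 99.7) and the other nuclei held 2 of them. All 3 were found in 4 of 55 committed nuclei (7.27%), in 1 of 64 precursors, in 14 of 1422 neurons (0.985%) and in 1 of 287 astrocytes. The median depth was 7860 UMIs in myelinating nuclei, 8510 in committed nuclei, 4467 in precursors, 16388 in neurons and 5525 in astrocytes.

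Mobp, a small basic protein of compact myelin, was at 592 CPM in the lowest of the 187 nuclei, 4013 CPM in the median one and 8287 CPM in the highest. In committed nuclei it ran from 0 through a median of 117 to 9121 CPM, and 21 of 55 reached the lowest myelinating nucleus. Mbp, the basic protein that holds the cytoplasmic faces of the membrane together, ran from 4013 through 8573 to 16772 CPM in myelinating nuclei, and 37 of 55 committed nuclei reached its lowest value. Both genes thus overlapped widely between the myelinating and committed labels, while no precursor reached the lowest myelinating nucleus for Mbp and 1 did for Mobp.

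Prr5l, whose product binds the mTORC2 kinase complex, behaved differently. It ran from 0 through a median of 2455 to 7838 CPM in the myelinating nuclei and did not exceed 265 CPM in any committed nucleus or 292 CPM in any precursor. Only 3 myelinating nuclei held no UMI of it. Tnr, the matrix glycoprotein tenascin-R, was the reverse: 42 of 187 myelinating nuclei held a UMI and the highest had 423 CPM, against medians of 10597 CPM in committed nuclei and 3255 CPM in precursors. Tnr is also made by neurons, which held 578 CPM. The committed nuclei fell on both sides for Mobp and Tnr, which led to splitting them below.

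**Figure D1:**
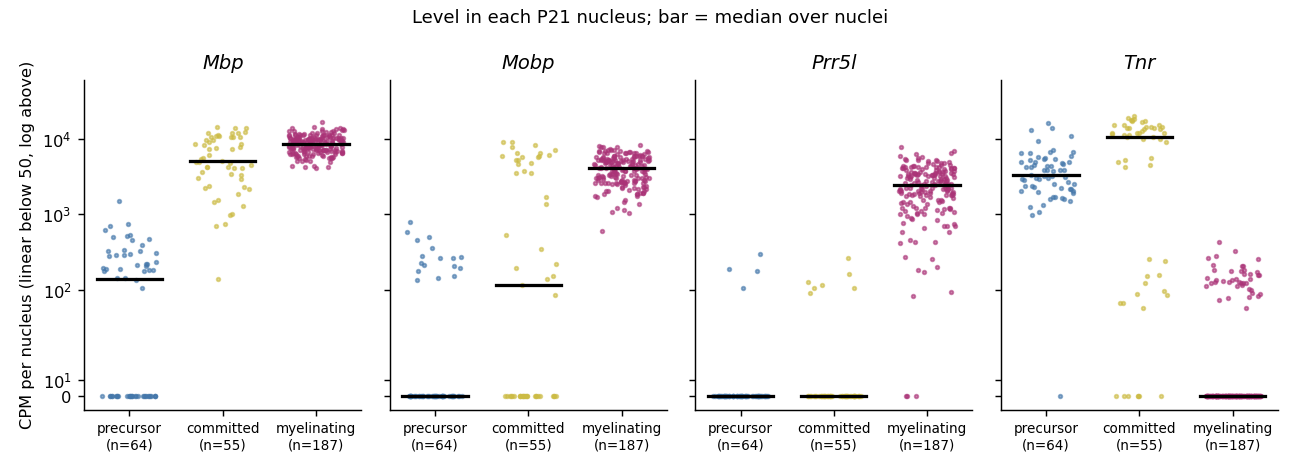
Level of Mbp, Mobp, Prr5l and Tnr in each P21 nucleus of the precursor, committed and myelinating labels, in UMIs per 1000000 UMIs of that nucleus (axis linear below 50 and logarithmic above), 1 point per nucleus. Myelinating nuclei overlap part of the committed nuclei for Mbp and Mobp, whereas every committed nucleus lies at or below 265 CPM for Prr5l and the highest myelinating nucleus for Tnr has 423 CPM.

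Across all genes, 6811 were measured well enough to set myelinating nuclei against precursors, and 992 of them (14.6%) were at least 2-fold higher and 1516 (22.3%) at least 2-fold lower. Against committed nuclei 597 of 6207 genes (9.62%) were higher and 611 (9.84%) lower. Committed nuclei set against precursors had 895 of 6785 genes (13.2%) higher and 1475 (21.7%) lower. The median log2 ratio over all genes was -0.14 against precursors and 0.003 against committed nuclei. Scaling by the median of ratios moved the median against precursors up by 0.25 and turned the split of 39.6% higher among the genes counted into 51.2% (1281 higher, 1220 lower), so excesses of lower genes against precursors follow the scaling. The comparisons with committed nuclei and with precursors share the myelinating nuclei.

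Myelin sheath proteins had the highest median log2 ratio to precursors of the 10 gene lists, at 3.96. Mobp and Mbp of this list are also markers of the label. Of 17 measured genes 13 were at least 2-fold higher and 1 was lower (14.6% and 22.3% over all genes). Against committed nuclei 7 were higher and 1 was lower (9.62% and 9.84% over all genes). The other 9 lay between, and the median was 0.73. By subtype, 9 of the 17 were already at least 2-fold higher in committed nuclei and stayed within 2-fold of that in myelinating nuclei, and 4 were at least 2-fold higher in myelinating nuclei than in both others; the same 2 patterns held for 462 (6.91%) and 326 (4.88%) of 6683 genes measured in all 3 subtypes.

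Mbp had 177 CPM in precursors, 7012 in committed and 8825 in myelinating nuclei (8678 to 8973), a ratio of 1.26 between the last pair (1.21 to 1.31). Mag, an adhesion protein of the innermost myelin wrap, was as high in the committed sum as in the myelinating one. It had 1925 CPM (1803 to 2052) and 1797 CPM (1731 to 1864), against 6 UMIs in precursors. The median committed nucleus held 784 CPM of Mag and the median myelinating one 1691 CPM, and 43 of 55 committed nuclei held a UMI. In the sums, Mbp and Mag thus had most of their level under the committed label, but unevenly between its nuclei.

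Other sheath genes had most of theirs under the myelinating label. Mog, a glycoprotein of the outer myelin surface, had 33.4, 498 and 2200 CPM in precursors, committed and myelinating nuclei, 4.42-fold more in the last than in committed nuclei (3.88 to 5.05). Mal, a proteolipid of myelin rafts, had 40.1, 41.2 and 697 CPM and was 16.9-fold higher than in committed nuclei (10.9 to 27.8). Ermn, which encodes the cytoskeletal protein ermin, had 1, 6 and 207 UMIs in the 3 sums, and Opalin, an oligodendrocyte membrane glycoprotein, 4, 80 and 1021 UMIs. The list also held genes that ran the other way: Cldn14, a claudin, had 0 UMIs in precursors, 737 CPM in committed and 443 CPM in myelinating nuclei, and the tetraspanin Cd9 was 2.21-fold lower in myelinating nuclei than in precursors (1.68 to 2.88).

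Of the genes of lipid and cholesterol synthesis 15 had the early course and 3 the late one (6.91% and 4.88% over all genes). Against precursors 19 of 28 were higher and 0 lower (14.6% and 22.3% over all genes), with a median log2 ratio of 1.82. Against committed nuclei 3 of 29 were higher, 2 lower and 24 between, near the 9.62% and 9.84% of all genes, with a median of 0.14. Ugt8a, which makes galactosylceramide, had 170, 646 and 1029 CPM in the 3 subtypes, and Fa2h, which hydroxylates the fatty acids of myelin lipids, 104, 535 and 914 CPM.

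Aspa stood apart from the rest of the lipid list. It encodes aspartoacylase, which releases acetate from N-acetylaspartate, and its gene lies on chromosome 11 at 73304992 to 73329596 on the minus strand of GRCm38. Precursors held 1 UMI and committed nuclei 5, against 1087 UMIs or 694 CPM (653 to 736) in myelinating nuclei, and 181 of 187 nuclei held at least 1. The ratio to committed nuclei was 67.4, with an interval of 28.8 to 208.

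Beyond the lists, the genes ranked highest in myelinating nuclei were few in the other lineage nuclei. Sec14l5, which encodes a SEC14-domain lipid-binding protein (chromosome 16, 5147109 to 5187271, plus strand), had 0 UMIs in precursors, 30 in committed and 1657 in myelinating nuclei, at least 105.5-fold higher than in precursors when the absence is given 3 counts. All 187 nuclei held a UMI of it, and 5 of 55 committed nuclei reached the lowest myelinating one. Prr5l (chromosome 2, 101714285 to 101883027, minus strand) had 4, 11 and 3841 UMIs, 184-fold more than in precursors (71.6 to 674) and 108-fold more than in committed nuclei (60.4 to 217). It overlaps a gene on the opposite strand, and the sources used here do not say whether the counting used strand.

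Gm4593, a gene without an established role (chromosome 7, 134425278 to 134501160, minus strand), had 0 UMIs in both other subtypes and 762 in myelinating nuclei, at least 78.7-fold higher than in committed nuclei. Its neighbour in position, D7Ertd443e, at 134265779 to 134385661 on the same strand, had 3, 1 and 487 UMIs. The cyclic nucleotide phosphodiesterase Pde8a had 1, 3 and 1019 UMIs. Hapln2, a link protein of the matrix at nodes of Ranvier, had 0, 0 and 265 UMIs, and 91 of 187 nuclei held at least 1. Unlike these, the ubiquitin ligase Rnf220 was already high in committed nuclei, with 53.4, 2641 and 5266 CPM.

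**Figure D2:**
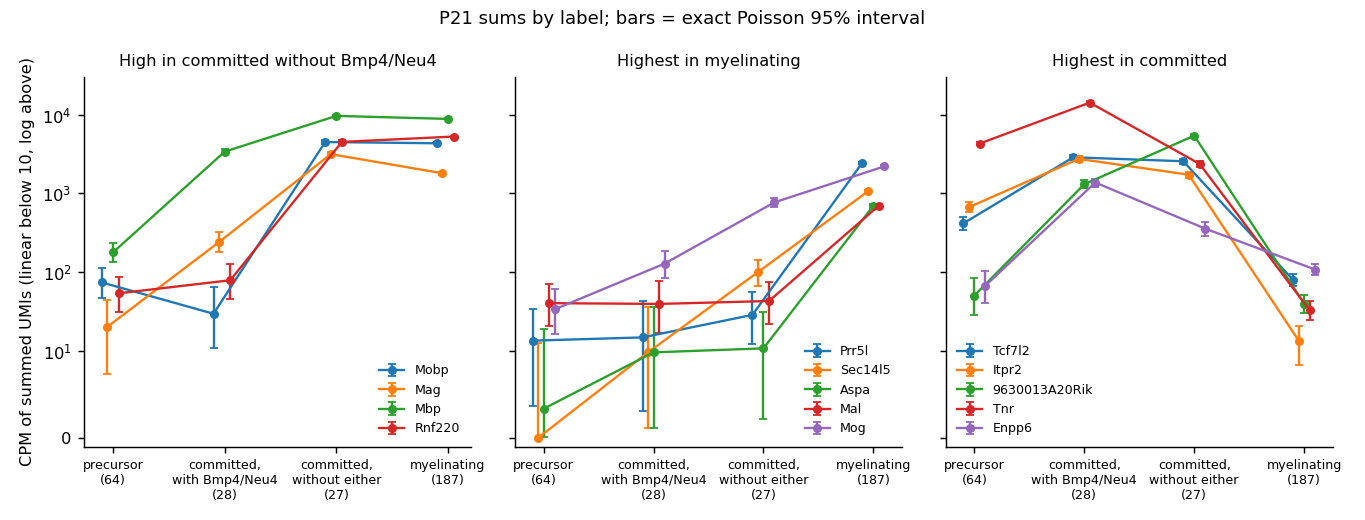
Levels in CPM (axis linear below 10 and logarithmic above, bars are exact Poisson 95% intervals) of genes in 4 sums of P21 nuclei: 64 precursors, 28 committed nuclei with a UMI of Bmp4 or Neu4, 27 committed nuclei with neither, and 187 myelinating nuclei. Mobp is at 29.4 and 4486 CPM in the committed sums and at 4325 CPM in myelinating nuclei, whereas Prr5l is at 14.7 and 28.4 CPM in the committed sums and at 2451 CPM in myelinating nuclei.

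The split of the committed label was chosen after its values were seen. Bmp4, a secreted growth factor, and Neu4, a sialidase, each had 1 UMI in all myelinating nuclei, and 28 of the 55 committed nuclei held a UMI of either. The 27 nuclei with neither were the deeper ones, with a median of 10430 UMIs against 6919. In these 27 nuclei Mobp stood at 4486 CPM (4242 to 4741), close to its 4325 CPM in myelinating nuclei (4222 to 4429), and in the 28 others at 29.4 CPM (10.8 to 63.9). Mag was at 3147 CPM in the nuclei with neither gene, above the 1797 CPM of myelinating nuclei, and at 240 CPM in the others. Sox6, a transcription factor of precursors, was at 156 and 2820 CPM, and Tnr at 2359 and 14224 CPM.

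Commitment genes were set side by side in the committed sums. Tcf7l2, a transcription factor of the Wnt pathway, was at 2554 CPM without and 2869 CPM with Bmp4 or Neu4, and at 79.1 CPM in myelinating nuclei. Itpr2, an intracellular calcium channel, was at 1723 CPM (1573 to 1883) without and 2737 CPM (2515 to 2974) with them, against 13.4 CPM. Enpp6 and Bcas1 of the commitment list were lower without Bmp4 or Neu4, the former at 355 against 1371 CPM and the latter at 1396 against 6507 CPM. Prr5l, Mal and Aspa stayed low in both committed sums, at 28.4 and 14.7, 42.6 and 39.2, and 10.7 and 9.79 CPM. The summed committed nuclei without Bmp4 or Neu4 therefore held Mobp at the myelinating level, and Tcf7l2 and Itpr2 far above their myelinating levels. Whether the same nuclei held these genes together was not tested. Set against these 27 nuclei alone, 780 genes were higher and 528 lower in myelinating nuclei, so that 59.6% of the genes counted were higher in place of 49.4%.

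The genes lowest in myelinating nuclei came from 2 groups, those of precursors and those of the committed stage. Of 27 precursor genes 26 were at least 2-fold lower than in precursors and 0 higher (22.3% and 14.6% over all genes). Their median log2 ratio was -4.50, and several were listed because they mark that label. By course, 8 of the 27 were at least 2-fold lower already in committed nuclei and within 2-fold of those in myelinating nuclei (718 of 6683 genes, 10.7%), 5 were lower only in myelinating nuclei (193 genes, 2.89%) and 11 were 2-fold lower at both steps (208 genes, 3.11%). Pdgfra, the receptor for platelet-derived growth factor, had 228 UMIs in precursors, 2 in committed and 5 in myelinating nuclei. Chst11, which sulfates chondroitin chains, had 375, 60 and 2 UMIs. Xylt1, which starts those chains on core proteins, had 2968, 364 and 18.5 CPM, and the core proteins Vcan and Cspg4 had 1012 and 501 CPM in precursors and 7.02 and 7.66 CPM in myelinating nuclei.

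The exception on the precursor list was Lrp1b, an endocytic receptor of the LDL receptor family. It had 4885 CPM in precursors, 1070 in committed and 4603 in myelinating nuclei, so that committed nuclei were the low ones, and it was 4.30-fold higher in myelinating than in committed nuclei (3.93 to 4.71). Gpm6b, a membrane glycoprotein on the sheath list, had a similar course with 591, 255 and 838 CPM.

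Of 21 commitment genes measured against committed nuclei 20 were at least 2-fold lower and 1 was higher (9.84% and 9.62% over all genes). Their median log2 ratio was -4.13, and several were listed because they mark the committed label. Across the 3 subtypes 17 of the listed genes were highest in committed nuclei by 2-fold on both sides, a course that 230 of 6683 genes (3.44%) had. Itpr2 had 199, 1044 and 21 UMIs and was 160-fold lower in myelinating than in committed nuclei (104 to 260). The noncoding RNA 9630013A20Rik had 50.1, 3681 and 39.6 CPM, and 26 of its 62 UMIs in the myelinating sum came from a single nucleus. The kinase Fyn had 992, 3664 and 164 CPM, and Frmd4a, a FERM-domain scaffold protein, 631, 12148 and 213 CPM. Bcas1, which marks newly forming oligodendrocytes, remained detectable in all 187 myelinating nuclei, with 1058, 3545 and 1255 CPM.

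**Figure D3:**
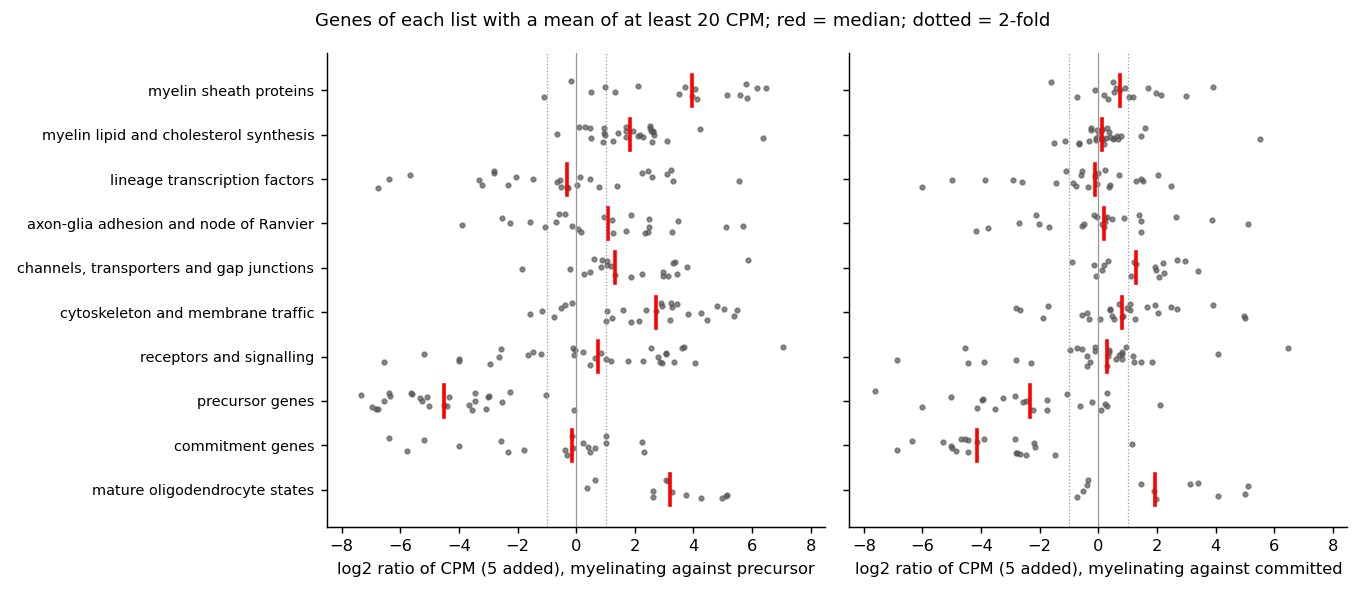
Log2 ratio of myelinating nuclei against precursors and against committed nuclei for the measured genes of 10 gene lists, 1 point per gene, with the median of each list in red and dotted lines at 2-fold. Medians of the sheath list are 3.96 and 0.73, of the lipid list 1.82 and 0.14, of the channel list 1.32 and 1.27, and of the commitment list -0.14 and -4.13.

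Lineage transcription factors were split, with 8 of 27 higher and 10 lower than in precursors (14.6% and 22.3% over all genes) and 5 of 25 higher and 7 lower than in committed nuclei (9.62% and 9.84%). St18, a zinc-finger factor, had the highest ratio to precursors of the list, with 104, 3979 and 5105 CPM. Myrf, the factor that switches on myelin genes, had 16.7, 255 and 200 CPM, and Sox10, needed through most of the lineage, 240, 455 and 245 CPM, so both were no higher under the myelinating label than under the committed one. Olig2, a founding factor of the lineage, was 2.92-fold lower than in precursors, on 43 and 77 UMIs.

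Prox1 and Nkx6-2, both homeobox factors, had their highest levels in myelinating nuclei, with 46.7, 51.5 and 308 CPM and with 3.34, 24.7 and 77.2 CPM. Prox1 overlaps genes on the opposite strand. Sox5, Sox6, Myt1 and Nkx2-2 lay low: Sox6 had 2150, 1276 and 14.7 CPM, Sox5 1566, 224 and 25.5 CPM, and Myt1 a single UMI in myelinating nuclei against 139 in precursors. Tcf7l2 was 34.0-fold lower than in committed nuclei (28.2 to 41.2).

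Genes of axon contact and the node of Ranvier did not go one way. Against committed nuclei 6 of 23 were higher and 6 lower (9.62% and 9.84% over all genes), with a median log2 ratio of 0.18. Nfasc, whose glial form sits at the paranode, had 334, 8251 and 1905 CPM and was 4.33-fold lower in myelinating than in committed nuclei (4.13 to 4.54). Cntn2, a contactin of the juxtaparanode, had 7, 8 and 482 UMIs and was 18.7-fold higher (9.40 to 43.5). The membrane skeleton genes Epb41l2 and Epb41l3 differed from each other in the same way, with 170, 1517 and 79.1 CPM for the former and 184, 65.9 and 443 CPM for the latter. Pcdh9, a protocadherin, had 5306, 10907 and 29914 CPM, and it overlaps other annotated genes on both strands.

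Channels, transporters and gap junction genes differed against both other subtypes. Against precursors 14 of 21 were higher and 1 lower (14.6% and 22.3% over all genes), with a median log2 ratio of 1.32, and against committed nuclei 11 of 17 were higher and 0 lower (9.62% and 9.84%), with a median of 1.27. Committed against precursor nuclei had 6 of 16 higher and 3 lower (13.2% and 21.7%). By course, 9 had the late and 4 the early one (4.88% and 6.91% over all genes). Slc24a2, a sodium, calcium and potassium exchanger, had 96.8, 1398 and 5903 CPM and was more than 2-fold higher at each step. The potassium channel Kcna1 had 36.7, 63.8 and 320 CPM, the carbonic anhydrase Car2 23.4, 18.5 and 245 CPM, and the glutamine synthetase Glul 16.7, 16.5 and 162 CPM.

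Among cytoskeleton and membrane traffic genes 21 of 27 were higher than in precursors (14.6% over all genes) and 11 of 27 higher than in committed nuclei (9.62%), and 11 had the late course (4.88%). Fnbp1, a membrane-bending F-BAR protein, had 70.1, 204 and 3116 CPM and was 15.3-fold higher than in committed nuclei (12.5 to 18.9). Dock5, an activator of small GTPases, had 0, 1 and 340 UMIs, and its relative Dock10 618, 1124 and 4607 CPM. The septin gene Sept4 had 23.4, 247 and 794 CPM, and Anln, whose product anillin binds septins, had 2, 1 and 344 UMIs. Dock9 ran against its relatives, with 641, 1499 and 211 CPM.

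Receptors and signalling genes held Prr5l, itself a marker of the label, and 14 others that were higher than in precursors. These were among 32 measured, with 10 lower (14.6% and 22.3% over all genes). Grm3, a metabotropic glutamate receptor, had 46.7, 20.6 and 431 CPM in the 3 subtypes. A UMI of Grm3 was found in 74.9% of myelinating nuclei, 72.4% of the deeper neurons and 86.1% of astrocytes. After thinning to 2000 UMIs these shares were 50.3%, 29.5% and 63.1%. Pde4b, which breaks down cyclic AMP, had 1576, 4461 and 12134 CPM. Gpr17, a receptor of the premyelinating stage, had 297, 278 and 14.0 CPM, and Rras2, a small GTPase, 33.4, 836 and 30.6 CPM.

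The 187 nuclei were not alike. Ordered by the first component of the nuclei's own expression, computed on one set of genes and read on the other set, the orders from both sets agreed at a Spearman rho of 0.97 over 187 nuclei, a description of nuclei from 1 library. This ordering was chosen after the data were seen, and its ends are called first and last, with Prr5l lower at the first. The first component held 5.78% and 5.39% of the variance of the 2 sets and the second 1.68% and 1.67%. The ordered nuclei were cut into a first, a middle and a last group of 63, 62 and 62. Of 6046 genes measured, 414 (6.85%) were at least 2-fold higher in the last group and 279 (4.61%) in the first.

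Structural myelin genes were read along the same order. Mbp was at 9603, 8250 and 8348 CPM in the first, middle and last group, and Mog at 2185, 2200 and 2219 CPM. Mobp was 1.53-fold higher in the first than in the last group (1.44 to 1.62), and Opalin 2.62-fold (2.19 to 3.15). Of the 17 sheath genes 1 was at least 2-fold higher in the last group and 2 in the first, near the 6.85% and 4.61% of all genes. Prr5l, one of the label's markers, ran the other way at 1330, 2639 and 3762 CPM.

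The first end carried Synpr, a synaptic vesicle membrane protein, at 1299, 460 and 45.6 CPM, a 28.5-fold difference between the ends (18.5 to 46.2). Ctps, which makes the nucleotide CTP, was at 551, 69.2 and 27.5 CPM. Prom1, a membrane glycoprotein, had 338 CPM in the first group and 0 UMIs in the last, and the receptor tyrosine kinase Kit had 201 and 2.11 CPM. Nuclei at this end also held more Nfasc (3448 against 754 CPM) and Cd9 (213 against 32.6 CPM), genes that were highest in committed nuclei. Set against only the committed nuclei without Bmp4 or Neu4, however, Cd9 was higher in myelinating nuclei (log2 ratio 0.39). Tcf7l2 was at 117 CPM in the first group and 29.6 CPM in the last, far under the 2687 CPM of committed nuclei at both ends.

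The last end carried Hapln2 at 9.50, 121 and 429 CPM, a 45.2-fold difference (20.4 to 124), with a UMI in 5 of 63 nuclei of the first group and 58 of 62 of the last. Anln was at 26.96, 189 and 515 CPM, the organic anion transporter Slco3a1 at 28.5, 214 and 630 CPM, and Apod, a lipid-binding apolipoprotein, at 79.3, 296 and 398 CPM. Grm3 was at 143, 516 and 739 CPM. Enpp6, a choline phosphodiesterase and a gene of the commitment list, was at 3.17, 56.2 and 296 CPM, so it was lowest at the end with more Nfasc and Tcf7l2. Sec14l5, Aspa and Cntn2 differed by less than 1.3-fold between the ends, at ratios of 1.26, 1.28 and 1.27.

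**Figure D4:**
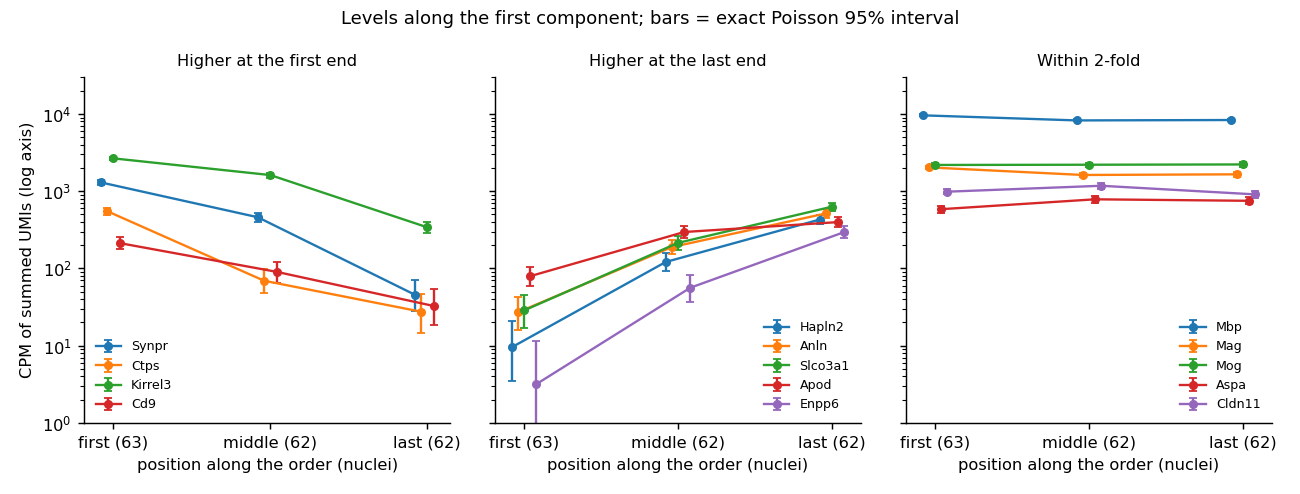
Levels in CPM (logarithmic axis, bars are exact Poisson 95% intervals) in the first, middle and last group (63, 62 and 62 nuclei) of the P21 myelinating nuclei along the order, each gene read on the order from the gene set that does not hold it. Synpr runs from 1299 to 45.6 CPM and Hapln2 from 9.50 to 429 CPM, while Mbp runs from 9603 to 8348 CPM.

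Depth moved along the order as well, and so did the astrocyte marker Slc1a3. Median UMIs per nucleus were 9981, 7645 and 6908 in the 3 groups, with a rho of -0.36 and -0.38 between the order and the UMIs of a nucleus, and the summed level of 7 astrocyte markers was 105, 241 and 322 CPM, against 6921 CPM in astrocytes. Among these markers Slc1a3, a glutamate transporter of astrocytes, was itself a gene of the last end, at 15.8, 117 and 239 CPM. Without it the other 6 summed to 85.6, 109 and 99.97 CPM, with no steady course. Neuronal markers had no such course (1051, 1378 and 1182 CPM). The order from nuclei thinned to 2000 UMIs had a rho of 0.98 and 0.97 with this one, and the order without the nuclei highest in other cells' markers, which left 141, a rho of 0.9996 and 0.9994. Xist, the noncoding RNA that silences an X chromosome in female cells, had a UMI in 68.3%, 62.9% and 69.4% of the nuclei of the 3 groups. The part of depth and of these markers in the order was not tested beyond these alternatives.

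Genes that differ along the order were set beside the subtype differences. Of the 611 genes that were lower in myelinating than in committed nuclei 353 were measured along the order, and 66 of these were at least 2-fold higher in the first group (4.61% over all genes) and 28 in the last (6.85%). Of the 597 that were higher than in committed nuclei, 120 were higher in the last group and 30 in the first. The counts of 28 and 30 are near the shares of all genes. These counts describe nuclei that also entered the subtype sums, so the measures share their nuclei.

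State genes known from other studies of mature oligodendrocytes were mostly found in part of the nuclei. Opalin had a UMI in 89.8% (84.6 to 93.8) of the 187 nuclei, Car2 in 74.9%, Apod in 69.0%, Anln in 55.6% and Hapln2 in 48.7%. After thinning to 2000 UMIs these shares were 65.2%, 38.0%, 34.8%, 35.3% and 26.2%. Hapln2 was seen in 1.48% of neurons and in 0 of 55 committed nuclei, which allows a share of up to 5.45%. Klk6, a secreted protease, had a UMI in 1.60% of nuclei and the cytokine Il33 in 5.88%. Ptgds, which makes prostaglandin D2, was found in 40.6% of nuclei and in 29.8% of neurons with a median of 16388 UMIs, and Synpr in 55.1% against 50.6%. After thinning, the shares of myelinating nuclei and neurons were 18.2% and 5.20% for Ptgds and 38.5% and 19.5% for Synpr.

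Myelin RNA was also present in nuclei of other cells. In P21 neurons Mbp stood at 69.6 CPM and 55.8% of 1422 neurons held a UMI of it, while Mobp stood at 16.4 CPM with a UMI in 20.3%. At E19, P4 and P8 the Mbp level of neurons was 34.3, 49.0 and 40.8 CPM. P21 astrocytes held 79.3 CPM of Mbp and 43.7 CPM of Mobp, and P21 microglia 252 CPM of Mbp. Free RNA in the droplets can give such UMIs, and its part was not tested. The 73.5 CPM of Mobp in P21 precursors were of the same order as in astrocytes, and precursors of the other stages held 0 UMIs of it. Of the 86 Mobp UMIs in P4 neurons 85 came from a single nucleus. Single nuclei also held 214 of the 1043 Mbp UMIs in P4 neurons and 316 of the 1804 in P21 neurons. For Mobp in P21 neurons it was 70 of 425.

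**Figure D5:**
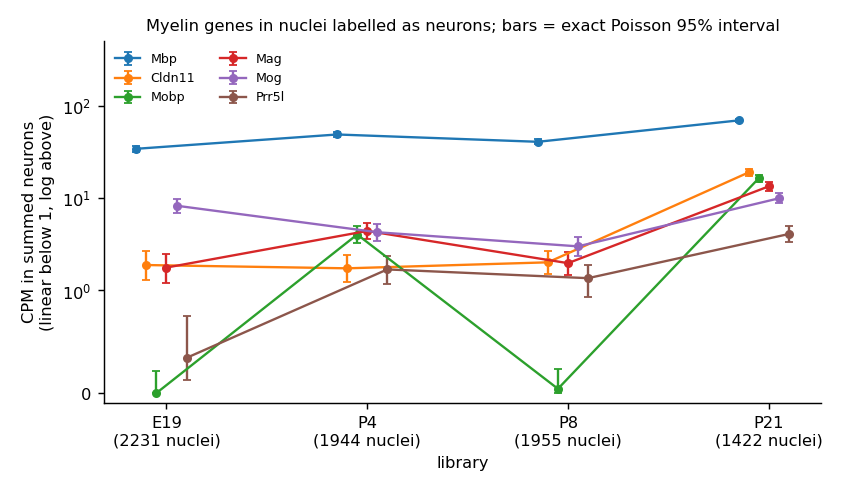
Levels of myelin genes in the summed neurons of each library (E19, P4, P8, P21), in CPM on an axis that is linear below 1 and logarithmic above, with exact Poisson 95% intervals. Mbp is at 34.3, 49.0, 40.8 and 69.6 CPM and Mobp at 0, 4.04, 0.0412 and 16.4 CPM, both highest in the library that holds the myelinating nuclei.

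In the other direction, the myelinating nuclei held little of most other classes' markers relative to those classes, but not none. Their 9 neuronal markers summed to 1189 CPM, beside 1200 in committed nuclei, 5773 in precursors and 31087 in neurons, and 172 of 187 nuclei held UMIs of at least 3 of them. The 7 astrocyte markers summed to 210 CPM, the 6 microglia markers to 24.9 CPM, the 5 endothelial markers to 11.5 CPM with 1 of them at 0, and the 4 markers of dividing cells to 4.47 CPM. Of 4 Schwann cell genes 3 had 0 UMIs. The 6 precursor markers summed to 204 CPM against 15430 CPM in precursors. Without the nuclei highest in the markers of other classes, which left 141 myelinating and 42 committed nuclei, 646 genes were higher and 614 lower than in committed nuclei.

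Myelinating nuclei were too few at other stages for a comparison. The P8 nucleus with this label had 11350 UMIs and differed from the P21 nuclei, with 0 UMIs of Mobp, Prr5l, Mog, Opalin, Sec14l5 and Aspa. It held 99 UMIs of Mbp, together with 101 of Tnr, 58 of Itpr2, 31 of Tcf7l2 and 43 of 9630013A20Rik. By these genes it was nearer to committed nuclei than to the P21 nuclei of its own label. Its Mbp level of 8722 CPM lay within the P21 myelinating range.

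The committed label itself differed between P8 and P21, which bears on what the myelinating nuclei were compared with. The 33 committed nuclei at P8 held 0 UMIs of Mobp, 2265 CPM of Mbp and 290 CPM of Mag, against 2612, 7012 and 1925 CPM in the 55 at P21. Their Bmp4 was at 385 CPM, against 218 CPM, and their Tnr at 10202 CPM, against 7347 CPM. For Mobp, Mbp and Mag the P8 sum was nearer to the P21 committed nuclei with Bmp4 or Neu4 (29.4, 3383 and 240 CPM) than to those with neither. Precursors of E19, P4, P8 and P21 held 1243, 838, 761 and 761 CPM of Pdgfra and 1170, 1492, 1551 and 4294 CPM of Tnr.

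Several genes usually named with mature oligodendrocytes could not be read in these counts. Trf, the iron carrier transferrin, had 1 UMI in all 9724 nuclei, and Tuba1a, Evi2a and Pmp2 had 0, also in neurons, where the tubulin Tuba1a is abundant. Each of these 4 overlaps an annotated gene on the same strand, so their values say nothing about their expression here. Of the 85 genes chosen by rank, marker or list, 43 overlapped a gene on the opposite strand, 23 one on the same strand and 34 no other gene, and UMIs of overlapping genes could be shared.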

How the data were processed

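Single-nucleus RNA of mouse superior colliculus was captured with 10x Genomics 3′ v3 chemistry, per the labels' protocols, which also state alignment with CellRanger against a custom mm10 reference of unspliced transcripts (Cell Ranger 3.0.2 and mm10 per the submitters' processing notes). The deposited matrix holds UMI counts, not normalised, for 31053 genes and 9724 nuclei. The deposited table of nuclei gives stage, subtype, cluster and, as the authors' percent values, the mitochondrial share of UMIs, with a median of 0.298 in myelinating, 0.413 in committed and 0.541 in precursor nuclei; 4 further columns of values were not used. UMI totals recomputed from the counts matched that table in all 9724 nuclei. How the authors filtered nuclei, treated doublets and named subtypes is not stated in the sources used here. No doublet caller was run and no nucleus was removed. Barcodes shared by libraries numbered 9, none of them among the myelinating nuclei.

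Counts were summed per subtype of the P21 library and scaled to 1000000 (CPM), 1567311 UMIs in myelinating, 485759 in committed and 299483 in precursor nuclei. Ratios are log2 with 5 CPM added. With 1 library per stage no test was run. Folds against 0 UMIs used 3 counts per sum, and upper limits of shares with 0 nuclei used 3 nuclei. The genes named are Mobp, Prr5l and Mbp, the 15 highest and 10 lowest ratios against precursors and the 10 highest and 10 lowest against committed nuclei at 100 CPM or more in the higher sum (without mitochondrial, ribosomal, haemoglobin and sex-linked genes), and genes of 10 lists at a mean of 20 CPM or more. The genes along the order of nuclei and those of the committed split were named after their values were seen. The nuclei, lists and comparisons were chosen with earlier results of these data known. The order used genes with a UMI in at least 15 nuclei, in 2 sets with 1000 variable genes each. Sequences come from the RefSeq promoter table on GRCm38.p6, which held 67 of the 85 named genes; positions are 1-based, from the GRCm38 gene annotation in which 31011 of the 31053 identifiers were found. The computations were tested on simulated counts and used Python 3.11.15, NumPy 2.4.6, SciPy 1.17.1 and pandas 2.3.3. Alternatives were the added CPM, the scaling, weighting nuclei alike, thinning to 2000 UMIs, the filter on low values and leaving out nuclei with markers of other classes; the committed split, leaving out the nuclei highest in those markers and the settings of the order were added after seeing the data.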

Additional observations from a re-analysis of the deposited data

How the results depend on the processing

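With 1 library per stage there is no replicate to leave out, and all values describe pooled animals of that library. No paired analysis was possible because each stage has 1 library and the subtypes compared come from the same library. Asking for a UMI of at least 2 of Mobp, Prr5l and Mbp left the share of myelinating nuclei unchanged, because all 187 met this. As these genes mark the label, this says little about the share. Leaving out nuclei with UMIs of other classes' markers removed every precursor, so the share of the lineage could not be compared. The direction of named genes that differed at least 2-fold held under the alternatives, except as follows. Counts of genes at least 2-fold higher and lower followed the filter on low values. At a mean of at least 100 CPM they were 443 and 504 against precursors, 247 and 270 against committed nuclei, and 436 and 461 for committed nuclei against precursors. Without a filter they were 1690 and 2712, 1129 and 1064, and 1581 and 2880. Thinning each nucleus to 2000 UMIs gave 953 and 1007 against committed nuclei, of which 481 and 503 were shared, and lowered the number of marker and state genes with a UMI in at least 50% of nuclei from 14 to 9. Leaving out nuclei with UMIs of other classes' markers kept 10 myelinating and 7 committed nuclei and 0 precursors, so the comparisons with precursors could not be made; against committed nuclei it gave 1267 and 1730 and turned Jph4 to -0.84 on the log2 scale. Only committed nuclei with a UMI of Bmp4 or Neu4 gave 918 and 1036. Against those with neither, Cacng4 (0.47), Megf11 (0.71), Itga9 (0.046), Cd9 (0.39) and Neu4 (0.17) turned from lower to higher on the log2 scale, Neu4 by construction of the split. Differences under 2-fold were not followed for direction, and some changed. Mobp and Mbp were no longer higher than in committed nuclei with neither gene, which held 4486 and 9644 CPM. Mag was far higher than in committed nuclei with either gene (240 CPM). The cause of the other changes was not tested.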
